A study of Rattus norvegicus with 4 samples.

Results

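The folding of the chromosome around Sox10 was described in rat Schwann cells (SCs) from Hi-C contact counts. The region was the stretch of 2 Mb at chr7:119300001-121300000 of the rat build rn6, chosen because it holds the gene. The rule uses no measured value, but the locus was picked with earlier results of these data known. It covered 200 of the 277880 bins of 10 kb into which the genome was divided, and 197 of these 200 bins held enough contacts to be used. No rn6 gene annotation was used, so Sox10 was placed from its known position between 120.32 and 120.33 Mb, in the single bin chr7:120320001-120330000, called the Sox10 bin below. Distances are given toward lower or higher positions of the chromosome, because the strand of the gene was not read from an annotation of this build.

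Sox10 encodes a transcription factor of the SOX family with an HMG-box DNA-binding domain. It marks the neural crest and is needed at every stage of the SC lineage, where it acts with Egr2 on myelin genes. Its expression is known to depend on enhancers that lie at a distance from the promoter, which is why its contacts with surrounding chromatin are of interest. In the RefSeq gene order of a later rat assembly, GRCr8, its neighbours on one side were Polr2f, a subunit shared by the nuclear RNA polymerases, then C7h22orf23, Micall1 and Eif3l. On the other side lay Pick1, a PDZ-domain protein, then Slc16a8, a monocarboxylate transporter, Baiap2l2 and Pla2g6, a phospholipase. No rn6 annotation was used to place these neighbours, so no bin was assigned to any of them.

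Hi-C ligates DNA ends that were crosslinked near each other, so that a read pair records a contact between a pair of places in the genome. Within a chromosome, contacts become rarer with distance, and they are enriched inside topologically associating domains (TADs), stretches of chromatin that contact themselves more than their surroundings. The edges of TADs hold contacts back, and loops are single pairs of places that touch more often than their distance predicts.

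Primary SCs of rat sciatic nerve were cultured with serum, forskolin and heregulin-β1, and all of them received a lentivirus at 2 UFC per cell for 48 hours. The Lenti-AS virus overexpressed the antisense RNA of the Egr2 promoter, and the Lenti-GFP virus was the backbone control that carried GFP. Per the methods the antisense RNA was cloned into a vector with a DsRed reporter and the control vector carried AcGFP, so the antisense RNA and the change of reporter cannot be told apart. Each group had 2 libraries, made with the Arima kit and read in pairs of 150 bp. The labels gave neither the strain nor the age of the rats and did not say whether replicates came from separate animals or cultures, so p-values measure only the spread between these libraries, which may be technical. Hi-C counts DNA contacts, so neither SC markers nor Sox10 RNA nor the level of the antisense RNA could be checked in these libraries. There were no uninfected cells, and the effect of the virus itself cannot be told apart from the culture.

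Sequencing gave 94956821 and 110770015 contacts in Lenti-GFP and 74811640 and 70488877 in Lenti-AS. Bins of the Sox10 window received 144773 and 160959 contact ends in Lenti-GFP and 107398 and 98651 in Lenti-AS, and the Sox10 bin received 541, 636, 456 and 409. Over the window this was 830.46 and 791.88 ends per 1000000 contact ends in Lenti-GFP and 786.16 and 764.6 in Lenti-AS, lower in Lenti-AS without overlap (two-sided exact permutation p = 0.333, n = 2 libraries each). The Sox10 bin took 3.1033 and 3.129 ends per 1000000 contact ends in Lenti-GFP and 3.338 and 3.17 in Lenti-AS. Both Lenti-AS values lay above both Lenti-GFP values, with a two-sided exact permutation p of 0.333, which is the smallest value that 2 libraries against 2 can give. Single values per library, reported below with an exact p, can therefore never pass a threshold of 0.05 in this design.

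The Sox10 window was folded into TADs of unequal strength, and Sox10 lay in one of them, close to its edge at higher positions. The folding was measured by insulation, the mean of the balanced contacts that cross a bin within 200 kb, on the log2 scale and relative to the chromosome, where low values mark places that few contacts cross. Edges were local minima of this score with a prominence, the depth of the dip, of at least 0.2. In the sum of the 4 libraries 9 edges were found in the window, of 7278 in the genome, and 8 of the 9 were found in each single library within 1 bin. Single libraries had 9 and 9 edges in Lenti-GFP and 10 and 10 in Lenti-AS. Thinned to the shallowest, they had 10, 9, 10 and 10. The remaining edge, at chr7:121050001-121060000, had a prominence of 0.203 and was found in 3 libraries.

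In the summed libraries the deepest edge of the window lay 70 kb from the Sox10 bin, at chr7:120390001-120400000. Its insulation score was -1.352 and -1.385 in Lenti-GFP and -1.503 and -1.424 in Lenti-AS, and its prominence of 2.44 in the summed libraries exceeded that of 90.1% of all edges. Only 70 kb further, 140 kb from Sox10, a second deep edge at chr7:120460001-120470000 scored -1.246 and -1.271 in Lenti-GFP and -1.325 and -1.581 in Lenti-AS. In Lenti-AS replicate 2 this edge was the deeper of the pair, with a prominence of 2.66 against 0.851. Toward lower positions the nearest edge lay 220 kb from Sox10, at chr7:120100001-120110000, with scores of -0.6732 and -0.6759 in Lenti-GFP and -0.7565 and -0.7943 in Lenti-AS. Lenti-AS scored lower without overlap, that is, toward fewer crossing contacts, at these 3 edges and at 121150001, so at 4 of the 9 edges of the window, against 23.2% of all edges. It scored higher without overlap at 1 edge, 121050001 (0.0938 and 0.08485 in Lenti-GFP, 0.1831 and 0.1078 in Lenti-AS), against 13.5% of all, and at the other 4 the groups overlapped. For the edge at 120390001 the order depends on the bin. Lenti-GFP replicate 2 had this edge in the bin before, at 120380001. The scores there overlapped, at -1.351 and -1.404 in Lenti-GFP and -1.489 and -1.389 in Lenti-AS.

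None of these differences passed the test. The difference, Lenti-AS minus Lenti-GFP, was -0.195 (SE 0.078) at 120460001, -0.101 (SE 0.0445) at 120100001 and -0.095 (SE 0.0485) at 120390001, and limma's adjusted p over all 10 kb bins was 0.878, 0.886 and 0.889. The Sox10 bin itself scored -0.169 and -0.168 in Lenti-GFP and -0.172 and -0.161 in Lenti-AS, a difference of 0.00178 (SE 0.0436) with a limma adjusted p of 0.999. Across the window 153 of 197 bins were below 0, with a median difference of -0.03 against -0.00034 over all bins. With a 500 kb window all 197 were below 0 (median difference -0.0772, lowest adjusted p = 0.573 in limma). The share of all bins of the genome below 0 was not taken at either window size. None of the 197 bins passed limma's adjusted threshold of 0.05, against 0.00218% of all bins, and 12 bins, or 6.09%, had an unadjusted p below 0.05, against 5.66% of all bins. All 12 were lower in Lenti-AS, against 3.09% of all bins in that direction. The bin with the lowest unadjusted p was chr7:120140001-120150000, 180 kb from Sox10, with scores of -0.123 and -0.174 in Lenti-GFP and -0.312 and -0.328 in Lenti-AS, a difference of -0.17 (SE 0.0456, limma's adjusted p = 0.873). The next was its neighbour at 120130001, with a difference of -0.16 and the same adjusted p. In the other direction no bin reached an unadjusted p of 0.05, and the pair with the lowest p, at 120950001 and 120940001, were higher in Lenti-AS by 0.09 and 0.06 (limma's adjusted p = 0.889 and 0.921). Windows of neighbouring bins share most of their contacts, so runs of such bins are not separate measurements.

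**Figure D1:**
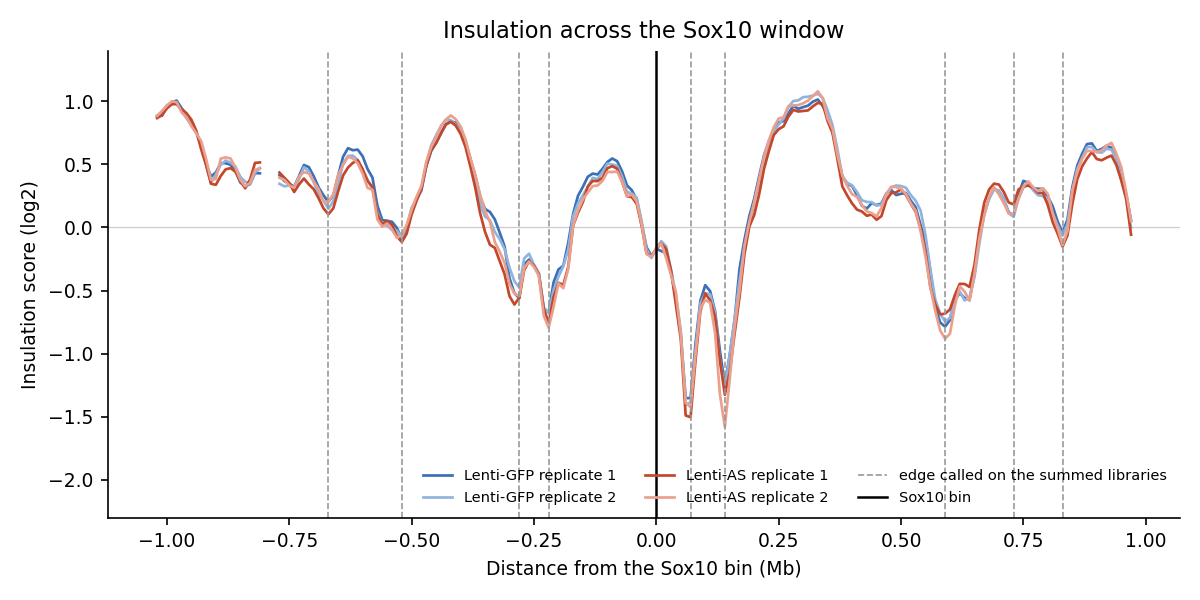
Insulation score (log2, vertical axis) of each used 10 kb bin against its distance from the Sox10 bin (horizontal axis), with one line per library. Vertical lines stand for the edges called on the summed libraries, and the 4 libraries dip at the same places, deepest at 70 and 140 kb above Sox10.

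Between its nearest edges Sox10 lay in a TAD of 280 kb, chr7:120110001-120390000. Contacts inside it were compared with the mean count of all used bin pairs of the genome at the same distance in the same library, a ratio called observed over expected (O/E) here, which is 1 for an average pair. Over the 351 pairs of bins inside the TAD the O/E was 1.693 and 1.653 in Lenti-GFP and 1.712 and 1.687 in Lenti-AS, from 3510, 3963, 2767 and 2583 contacts. The means were 1.673 ± 0.0284 and 1.7 ± 0.018 (SD, n = 2 libraries each, exact permutation p = 0.667), and the groups overlapped. Of the 8 TADs of the window, 4 had a lower O/E in both Lenti-AS libraries without overlap, against 31% of 7218 TADs of the genome, 0 had a higher one, against 32.2%, and in the other 4, that of Sox10 included, the groups overlapped. An excess inside the TAD and a depletion across its edges follow from how edges were called in these same libraries, so these values describe the size of each.

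Contacts across the edges of this TAD were fewer on the side near Sox10. Between the 200 kb on either side of the edge at 120390001 the O/E was 0.3761 and 0.3626 in Lenti-GFP and 0.3555 and 0.3626 in Lenti-AS (exact permutation p = 0.667, n = 2 libraries each). Across the edge at 120100001 it was 0.6888 and 0.6785 in Lenti-GFP and 0.6303 and 0.5958 in Lenti-AS, a difference of -0.0706 with an exact permutation p of 0.333 (n = 2 libraries each). The Lenti-AS libraries were lower there without overlap, but the difference was -0.0146 and the groups overlapped once the expected contacts also took account of how many cis contacts each bin had. Over these spans fewer contacts therefore crossed on the side close to Sox10 in every library. The 200 kb beyond 120390001 also hold the deep edge at 120460001. Those below 120100001 also hold the edge at 120040001. The values therefore cannot be credited to the nearest edge of each side alone.

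**Figure D2:**
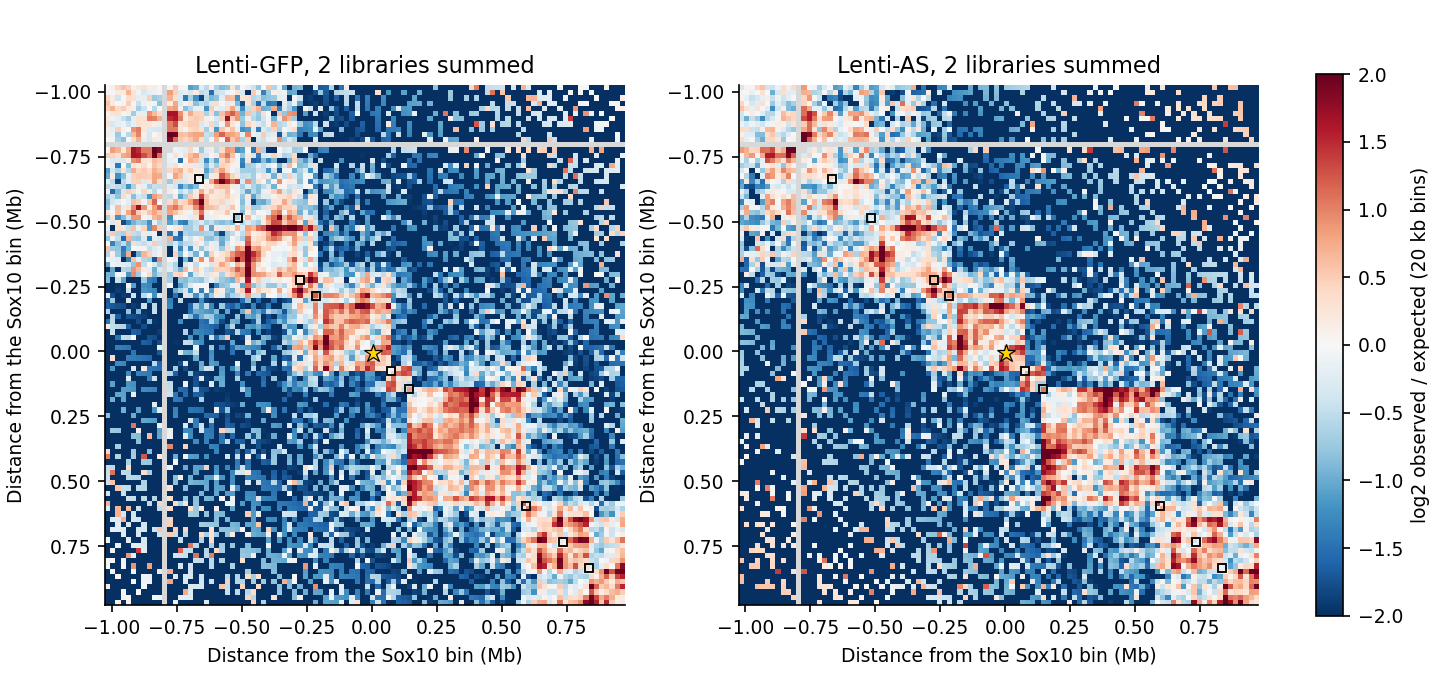
Contact map of the Sox10 window in each group (2 libraries summed), in bins of 20 kb, with distance from the Sox10 bin on both axes and log2 O/E as the colour, limited to 2 in either direction. Grey marks unused bins, the star marks the Sox10 bin and squares mark the edges, and the TAD of 280 kb that holds Sox10 appears as a block of excess contacts that ends 70 kb above the gene in both groups.

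The Sox10 bin kept most of its contacts within its own TAD. Its O/E with the other bins of the TAD at 50 kb or more was 1.28 in the summed libraries, with 1.28 and 1.18 in Lenti-GFP and 1.36 and 1.38 in Lenti-AS. With the short TAD next to it toward lower positions, chr7:120050001-120100000, it was 0.605, and with the short TAD between the pair of deep edges, chr7:120400001-120460000, it was 0.345. With the largest TAD of the window, the 440 kb at chr7:120470001-120910000, it was 0.265. Of the 8 TADs of the window, its own was the only one with which Sox10 had an O/E above 1 in the summed libraries. This pattern also largely follows from edges called in these same libraries, and other bins were not compared.

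Counted over every partner from 50 kb to 2 Mb, the Sox10 bin had few contacts for its distance. The O/E was 0.6362 and 0.5213 in Lenti-GFP and 0.599 and 0.6368 in Lenti-AS, with means of 0.5787 ± 0.0813 and 0.6179 ± 0.0268 (SD, n = 2 libraries each, exact permutation p = 0.667). In the summed libraries the value was 0.5921, below that of all but 14.6% of the used bins, while the bin before it had 1.042 and the bin after it 0.7726. In total the Sox10 bin held 1562 cis contacts in the sum, against a median of 1850 in the window. Contacts over 10 to 40 kb made up 36.97% and 47.48% of its contact ends in Lenti-GFP and 44.52% and 44.01% in Lenti-AS. Over all bins they made up at most 24.9% in any library. With expected contacts scaled to each bin's cis contacts, the Sox10 bin's O/E was 0.8819 and 0.697 in Lenti-GFP and 0.7781 and 0.8727 in Lenti-AS. Of 344 partners measured, 218 had no contact in any library and only 4 had 20 or more in all, so most single partners of Sox10 were too sparse to describe at this depth.

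Among the 4 partners with 20 or more contacts, the bin with the highest O/E was chr7:120380001-120390000, 60 kb from Sox10, just before the deepest edge. It had 17 and 25 contacts with Sox10 in Lenti-GFP and 14 and 16 in Lenti-AS, and an O/E of 2.76, 3.51, 2.92 and 3.52, which gives 3.18 in the summed libraries (95% Poisson interval 2.49 to 4.01, counting error only). The groups overlapped. With 1 bin added on each side of Sox10 the O/E was 3.45 and 4.14 in Lenti-GFP and 4.72 and 4.54 in Lenti-AS. This was higher in Lenti-AS without overlap (exact permutation p = 0.333, n = 2 libraries each). With the bins' cis contacts in the expected counts the O/E was 3.44 and 4.04 in Lenti-GFP and 3.05 and 3.72 in Lenti-AS. The groups overlapped again, and the difference changed sign to -0.359. The bin next to it, 50 kb from Sox10 at 120370001, had 15 and 18 contacts in Lenti-GFP and 6 and 13 in Lenti-AS, and an O/E of 2.06, 2.14, 1.06 and 2.41. Past the edge the contacts of Sox10 dropped within 2 bins, from 0.967 in the edge bin itself at 70 kb to 0.287 at 80 kb and 0.445 at 90 kb.

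Toward lower positions the partner that stood out was chr7:120140001-120150000, 180 kb from Sox10 and 40 kb inside the other edge of the TAD. It had 5 and 6 contacts with Sox10 in Lenti-GFP and 8 and 6 in Lenti-AS, and an O/E of 2.2, 2.27, 4.58 and 3.61, with 3.01 in the summed libraries (95% Poisson interval 1.95 to 4.44). Both Lenti-AS values lay above both Lenti-GFP values (exact permutation p = 0.333, n = 2 libraries each), but the difference rests on 14 contacts against 11, and with 1 bin added on each side of Sox10 the groups overlapped at 3.8, 2.91, 4.57 and 3.41. The fourth partner, 60 kb from Sox10 at 120260001, had 4 and 4 contacts in Lenti-GFP and 7 and 5 in Lenti-AS and an O/E of 0.649, 0.561, 1.46 and 1.1, with 0.884 in the sum (95% Poisson interval 0.54 to 1.37). It too was higher in Lenti-AS without overlap (exact permutation p = 0.333), and with 1 bin added on each side of Sox10 the groups overlapped at 1.22, 1.01, 1.57 and 1.08. These 4 were all of the partners with 20 or more contacts, listed by O/E, so their ranks are a description.

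The side from which Sox10 took its contacts varied between replicates. The log2 of the O/E toward higher over lower positions, up to 500 kb, was -0.6449 and 0.02018 in Lenti-GFP and -0.6301 and -0.1031 in Lenti-AS (exact permutation p = 1, n = 2 libraries each). With 1 bin added on each side of Sox10 it was -0.4454 and -0.2732 in Lenti-GFP and -0.1836 and 0.0369 in Lenti-AS, so that the difference changed sign to 0.286 and the groups did not overlap (exact permutation p = 0.333, n = 2 libraries each). Within 50 to 100 kb the higher side was favoured in all 4 libraries, with an O/E of 1.33, 1.61, 1.3 and 1.85 against 0.789, 0.372, 1.02 and 0.878 on the lower side. From 150 to 200 kb the lower side was favoured, with 1.82, 1.29, 2.26 and 1.36 against 0.0827, 0.143, 0 and 0.113 beyond both deep edges.

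**Figure D3:**
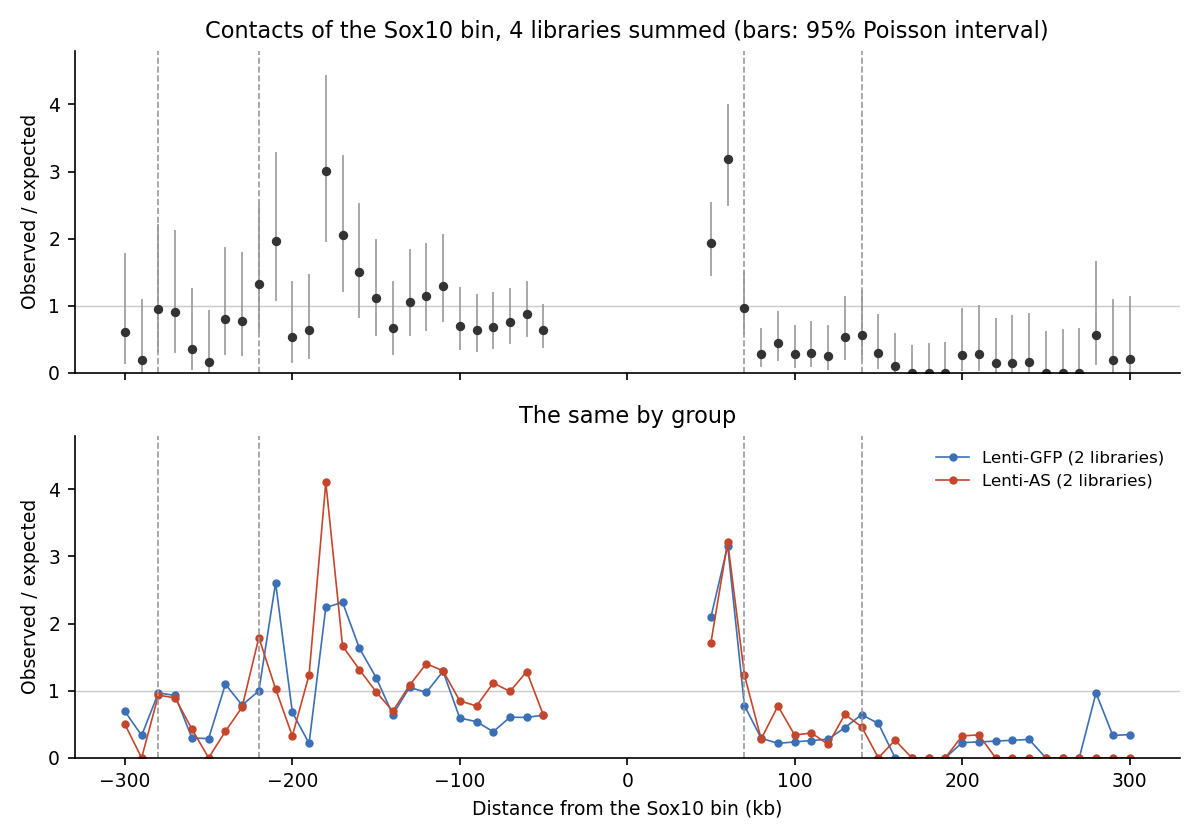
O/E of the Sox10 bin (vertical axis) with bins 50 to 300 kb away on either side (horizontal axis, distance in kb), in the 4 libraries summed with 95% Poisson intervals above and by group below. Vertical lines mark domain edges, and the contacts peak 180 kb below and 60 kb above Sox10 and drop past the edge at 70 kb in both groups.

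No loop was anchored at Sox10 in any library. A loop was a pair of 10 kb bins from 50 kb to 2 Mb apart whose count exceeded, at q of at most 0.05, what a regression on distance and on the cis contacts of both bins predicted in that library. The Sox10 bin was an end of 0 loops in each of the 4 libraries, and also with the libraries thinned to the shallowest and with 1 bin added on each side. The bins 60 kb above and 180 kb below Sox10 had the highest O/E among its partners with 20 or more contacts. They were therefore not called as loops with Sox10.

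Counted over all spans, the window held fewer loop ends per used bin than the genome. The Lenti-GFP libraries had 12 and 13 loops with an end in the window and the Lenti-AS libraries had 8 and 7. With libraries thinned to the shallowest there were 7 and 12 against 6 and 6. With the upper 2.5% of sampled pairs set aside in the loop fit, the setting before 0.5% was chosen, the counts were 21, 26, 24 and 20. There the groups overlapped. The window held 101.5, 116.8, 65.99 and 65.99 loop ends per 1000 used bins, in the order Lenti-GFP 1 and 2, Lenti-AS 1 and 2, against 462.9, 540.2, 359.3 and 337.4 over all bins. Its loops were also short, with a median span of 150, 140, 135 and 120 kb against 930, 950, 870 and 850 kb over all loops. Most loops of the genome were longer than the longest of the window, 320 kb. These densities therefore do not compare loops of the same span. Up to 320 kb the libraries together gave 15842 distinct loops over the 246245 used bins of the genome. The window had 21 over 197 used bins, so at these spans its loops were not sparser. That limit was set by the window's own longest loop. Together the libraries gave 21 distinct loops, of which 10 were called in 1 library and 3 in all 4, or 14.3%, against 19.3% of all loops of the genome up to the longest span of the window, 320 kb. No loop of the window spanned Sox10. None had a domain edge between its ends, and the same was true of 91.3% of all loops up to that span. Of the 21, 8 had an end within 1 bin of an edge, a share that was not taken over all loops.

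Among partners of Sox10 with 20 or more contacts, the bin at 120140001 had the highest O/E toward lower positions. The TAD that holds Sox10 contained 2 loops, and both started from this bin. One ran to chr7:120290001-120300000, 30 kb short of Sox10, with 22 and 31 contacts in Lenti-GFP and 18 and 12 in Lenti-AS, and was called in Lenti-GFP replicate 2 alone. The other ran to the next bin, chr7:120300001-120310000, 20 kb short of Sox10, with 13 and 14 contacts in Lenti-GFP and 18 and 22 in Lenti-AS. Its O/E was 5.1 and 4.75 in Lenti-GFP and 9.21 and 11.9 in Lenti-AS, without overlap, and it was called in Lenti-AS replicate 2 alone. With an unadjusted p below 0.05 it was the only window loop that was higher in Lenti-AS. It did not pass over all loops (log2 1.09, SE 0.387, edgeR's adjusted p = 0.952). Loops entered the test if called in any library, so this one was picked only through the group where it was high. Its p is therefore not evidence of a difference. The neighbouring loop from the same bin differed in the opposite direction (log2 -0.29, SE 0.353, edgeR's adjusted p = 0.952).

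The strongest loops of the window lay away from Sox10. The bin chr7:121160001-121170000, next to the edge 830 kb above Sox10, looped to 121290001 with 45 and 63 contacts in Lenti-GFP and 50 and 35 in Lenti-AS, and to 121300001 with 51, 50, 42 and 34. The third loop called in every library joined 119840001 and 119960001, within the TAD of 230 kb at chr7:119810001-120040000, with 49 and 42 contacts in Lenti-GFP and 23 and 30 in Lenti-AS.

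Of the 21 loops none passed the adjusted threshold in edgeR, against 0.0232% of all loops, nor with DESeq2, and 2 had an unadjusted p below 0.05, against 3.77% of all. The second of these joined 119200001, just outside the window, and 119410001, with 25 and 29 contacts in Lenti-GFP and 12 and 10 in Lenti-AS (log2 -0.76, SE 0.383, edgeR's adjusted p = 0.952). It was called in Lenti-GFP alone, so it too entered the test through the group where it was high. The loops with the next lowest p in each direction were 121160001 to 121480001, with 11, 11, 20 and 7 contacts (log2 0.81, SE 0.457, edgeR's adjusted p = 0.952), and 120470001 to 120690001, with 13, 4, 4 and 1 (log2 -1.23, SE 0.764, adjusted p = 0.952). In both the groups overlapped, and each was called in 1 library alone, of the group where it was higher. The former difference was -0.09 without Lenti-AS replicate 1 and 1.34 without Lenti-AS replicate 2. The latter was -0.05 without Lenti-GFP replicate 1 and -2.44 without Lenti-AS replicate 1. The rule of the study's methods is an unadjusted p below 0.05 with a change of more than 1 on the log2 scale. By it 1 loop of the window would count as changed, the one from 120140001 to 120300001, against 2.98% of all loops. With the bins' cis contacts in the offsets its log2 difference was 0.91, short of this rule.

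At the coarser scale of 100 kb bins, where counts are deeper, contacts were lower in Lenti-AS at 3 pairs of bins with an end in the window. Of 220 pairs with an end in the window, 3 passed the adjusted threshold of 0.05 in edgeR's quasi-likelihood test, against 0.336% of all pairs of the genome up to 1.9 Mb apart, and all 3 were lower in Lenti-AS. The median difference over the 220 pairs was -0.14 on the log2 scale against -0.0048 over all pairs. At an unadjusted p below 0.05 there were 35 pairs, or 15.9%, against 8.91% of all pairs. Of these 33 were lower in Lenti-AS, or 15% of the window pairs against 4.74% of all, and 2 were higher.

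None of the 3 pairs included the 100 kb bin that holds Sox10. The largest difference was between chr7:120400001-120500000, which holds the edge at 120460001, and chr7:121000001-121100000, with 41 and 30 contacts in Lenti-GFP and 10 and 10 in Lenti-AS (log2 -1.29, SE 0.34, edgeR's adjusted p = 0.047). The pair of 119200001 and 119600001, at the lower end of the window, had 105 and 112 contacts in Lenti-GFP and 55 and 40 in Lenti-AS (log2 -0.66, SE 0.175, adjusted p = 0.0481). The neighbouring bins at 119900001 and 120000001 had 692 and 727 contacts in Lenti-GFP and 448 and 383 in Lenti-AS, which is 57.9 and 52.7 against 48.4 and 43.7 per 1000000 contacts at that distance (log2 -0.26, SE 0.0689, adjusted p = 0.0492). In each pair the groups did not overlap. Of the 220 pairs 82, or 37.3%, were lower in both Lenti-AS libraries without overlap, against 19.9% of all pairs. Higher without overlap were 21, or 9.55%, against 18.6%. Pairs share bins and the same 4 libraries, so such counts are not of separate measurements. All 3 adjusted p-values lay close to the threshold, and none of the pairs passed once the offsets also held the cis contacts of both bins (edgeR's adjusted p = 0.183, 0.667 and 0.911). There the difference between 120400001 and 121000001 was still -1.20 on the log2 scale, while the other two were smaller at -0.35 and -0.06. With a minimum mean count of 5 the log2 differences were the same and edgeR's adjusted p-values were 0.0567, 0.059 and 0.0605. DESeq2 gave log2 differences of -1.32, -0.67 and -0.26 and called none, but it left 180 of the 220 pairs without an adjusted p, the first 2 of these pairs included, and gave 0.994 for the third. No pair passed in 50 kb bins. Without Lenti-GFP replicate 1, Lenti-AS replicate 1 or Lenti-AS replicate 2 none passed either, and the differences of the 3 pairs stayed below 0, from -0.94 to -1.33, -0.49 to -0.87 and -0.19 to -0.34.

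The cis contacts of the bins themselves moved with this result, but they include the contacts of the tested pairs. Of the 20 bins of 100 kb in the window, 11 had fewer cis contacts in both Lenti-AS libraries than in both Lenti-GFP libraries, or 55%, against 31.5% of all bins, and 2 had more, against 34.7% of all. With these contacts in the offsets the median difference of the window pairs was -0.0108 and no pair passed edgeR's adjusted threshold, while 22, or 10%, had an unadjusted p below 0.05, against 7.33% of all pairs fitted in this way, and 13, or 5.91%, were lower, against 3.89%. Since these sums hold the tested contacts, scaling by them removes part of a shared difference by construction. The part of the bins' cis contacts in the lower contacts of the window pairs was not tested further.

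The 100 kb bin that holds Sox10, chr7:120300001-120400000, had more cis contacts in Lenti-AS, while the median difference of its pairs was below 0. Its cis contacts were 36.94 and 36.09 per 1000000 cis contact ends in Lenti-GFP and 38.01 and 37.81 in Lenti-AS, a log2 difference of 0.0542, the highest signed value of the 20 bins, which ranged down to -0.208. None of its 16 pairs passed edgeR's adjusted threshold. Of the 16 pairs 10 were below 0, against 156 of the 220 window pairs, and the share over all pairs was not taken. The median of the 16 was -0.126, or -0.092 with the cis contacts in the offsets. These pairs share a bin and the same libraries, so they are not separate measurements. The 3 pairs with an unadjusted p below 0.05, or 18.8% of the 16, were lower in Lenti-AS, against 8.91% of all pairs in either direction and 4.74% lower. With its neighbour toward lower positions it shared 607 and 753 contacts in Lenti-GFP and 520 and 442 in Lenti-AS (log2 0.01, edgeR's adjusted p = 0.978), and with its neighbour toward higher positions 416, 456, 310 and 286 (log2 -0.04, adjusted p = 0.949). Its lowest p was for the bin at 120900001, with 35 and 52 contacts in Lenti-GFP and 18 and 18 in Lenti-AS (log2 -0.74, SE 0.278, edgeR's adjusted p = 0.31). The pairs with the lowest p that were higher in Lenti-AS, between 120700001 and 120800001 and between 120900001 and 122700001, did not pass either (log2 0.19 and 1.19, edgeR's adjusted p = 0.156 and 0.302).

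**Figure D4:**
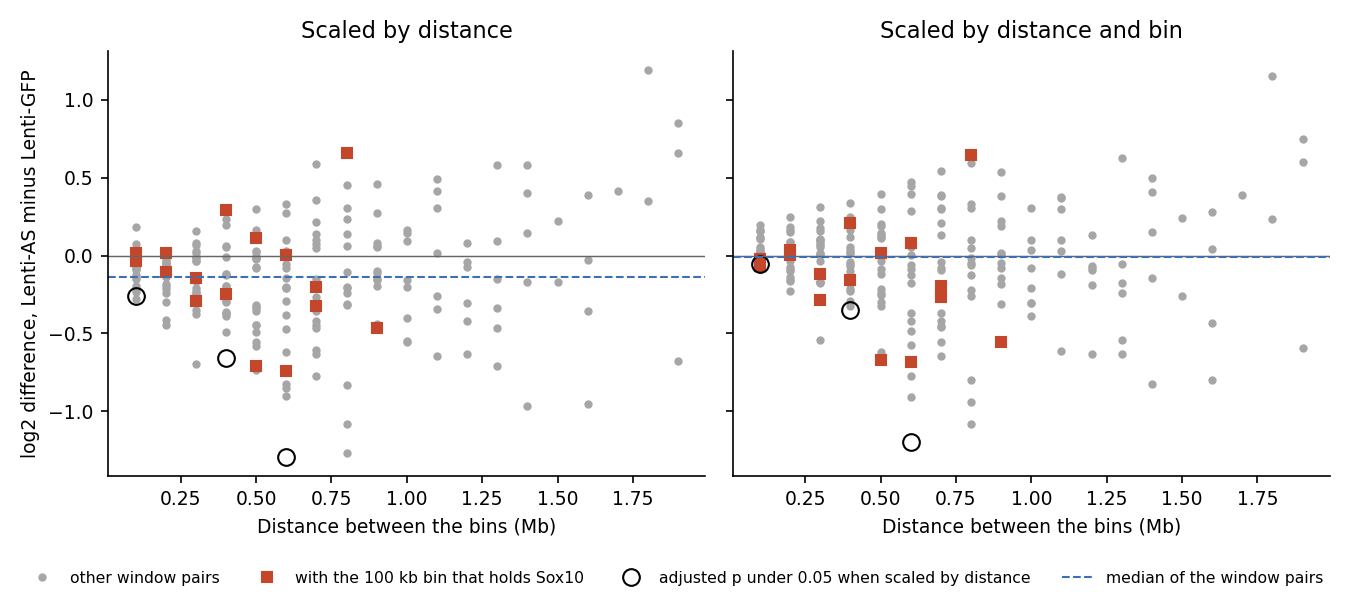
Difference in contacts between Lenti-AS and Lenti-GFP (log2, vertical axis) for each 100 kb pair with an end in the Sox10 window against the distance between its bins (horizontal axis, Mb), with offsets for distance on the left and for distance and the bins' cis contacts on the right. Squares are pairs of the 100 kb bin that holds Sox10, rings are the 3 pairs that passed on the left, and the dashed line is the median, -0.14 on the left and -0.0108 on the right.

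Contacts over more than 2 Mb were scarce in the Sox10 window. They made up 6.67% and 6.629% of its contact ends in Lenti-GFP and 6.346% and 6.541% in Lenti-AS, against 17.93%, 18.04%, 17.51% and 17.64% over all bins. Contacts with other chromosomes made up 15.21% and 15.04% in Lenti-GFP and 15.22% and 15.28% in Lenti-AS, slightly above the 13.76%, 13.91%, 14.25% and 14.16% of all bins. Contacts over 10 to 40 kb made up 32.28% and 32.49% of the window's contact ends in Lenti-GFP and 32.93% and 32.61% in Lenti-AS, against at most 24.9% over all bins in any library, so its contacts were more local than average.

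In the Sox10 bin the share beyond 2 Mb was 6.65% and 6.6% in Lenti-GFP and 4.61% and 4.65% in Lenti-AS. Both Lenti-AS values lay below both Lenti-GFP values (exact permutation p = 0.333, n = 2 libraries each), but they rest on 36 and 42 contacts against 21 and 19. The 95% Wilson intervals overlapped, at 4.85 to 9.07% and 4.92 to 8.81% in Lenti-GFP and 3.03 to 6.94% and 2.99 to 7.14% in Lenti-AS. With 1 bin added on each side the shares were 7.32% and 6.15% in Lenti-GFP and 5.61% and 5.38% in Lenti-AS.

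Contacts beyond 2 Mb were spread over chromosome 7, and relative to distance they were most frequent at a few segments. Over 132 segments of 1 Mb on chromosome 7, the O/E was above 1 at 12 segments, and all 12 had a positive value of the first eigenvector of the contact correlation matrix, the measure that separates the active and inactive compartments, with its sign set here by trans contacts. That sign rests on a weak relation, with an absolute r between eigenvector and trans contacts on chromosome 7 of 0.1581 and 0.1085 in Lenti-GFP and 0.0659 and 0.06492 in Lenti-AS. The window itself was positive in all of its 20 bins of 100 kb in every library, from 0.518 to 1.01. Over the 52 positive segments the median O/E was 0.711 and over the 80 negative segments it was 0.142. The eigenvector was computed from the contacts of chromosome 7 in these same libraries and the window is positive, so a higher O/E with positive segments largely follows from its construction. The highest was chr7:12000001-13000000, more than 100 Mb away, with an O/E of 3.91 and 3.36 in Lenti-GFP and 3.55 and 3.55 in Lenti-AS, followed by the segment before it at 3.232 in the summed libraries. Contacts with all positive segments together had an O/E of 0.7044 and 0.6551 in Lenti-GFP and 0.6299 and 0.6385 in Lenti-AS (exact permutation p = 0.333, n = 2 libraries each), and with all negative segments 0.1541, 0.1507, 0.1535 and 0.1523 (exact permutation p = 1).

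The eigenvector of the bin that holds Sox10 was 0.96 and 0.804 in Lenti-GFP and 0.768 and 0.73 in Lenti-AS, a difference of -0.13 (SE 0.074, limma's adjusted p = 0.609). No bin of the window passed limma's adjusted threshold, against 0% of all bins, and 1 of the 20 had an unadjusted p below 0.05, against 8.77% of all bins. That bin, at 120600001, was 0.847 and 0.851 in Lenti-GFP and 0.642 and 0.706 in Lenti-AS (difference -0.18, limma's adjusted p = 0.561). The next lowest p was at 119600001 (-0.14, adjusted p = 0.566), and in the other direction at 121100001 and 121200001 (0.10 and 0.08, limma's adjusted p = 0.627 and 0.649).

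Contacts with other chromosomes were tested per 10 kb bin with edgeR. None of 199 window bins passed the adjusted threshold, against 0.113% of all bins, while 22, or 11.1%, had an unadjusted p below 0.05, against 9.03% of all bins. Of these 21 were lower in Lenti-AS, or 10.6% against 4.56% of all, and 1 was higher. These bins share the same 4 libraries, so they are not separate measurements of a group difference. The Sox10 bin had 79 and 74 trans contacts in Lenti-GFP and 69 and 54 in Lenti-AS (log2 0.15, SE 0.179, edgeR's adjusted p = 0.856). DESeq2 called none either. The lowest p was for chr7:120610001-120620000, in the largest TAD of the window, with 150 and 141 contacts in Lenti-GFP and 69 and 76 in Lenti-AS (log2 -0.54, SE 0.151, edgeR's adjusted p = 0.152), followed by the bin at 120970001 (log2 -0.49, adjusted p = 0.287). The bins with the lowest p among those higher in Lenti-AS were at 120700001 (log2 0.37, edgeR's adjusted p = 0.464) and 120920001 (log2 0.21, adjusted p = 0.661).

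Among the other 20 chromosomes the trans contacts of the window were unevenly spread. Relative to the share that each chromosome took of all trans contacts of chromosome 7, chromosome 10 was contacted most, with an O/E of 1.811 and 1.888 in Lenti-GFP and 1.824 and 1.835 in Lenti-AS. It was followed by chromosomes 8, 19 and 17 at 1.47, 1.37 and 1.36. The lowest were X at 0.493 and chromosomes 16 and 2 at 0.581 and 0.711. In all 4 libraries 8 chromosomes lay above 1 and 11 below, and only 1 of the 20 changed sides between libraries.

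**Figure D5:**
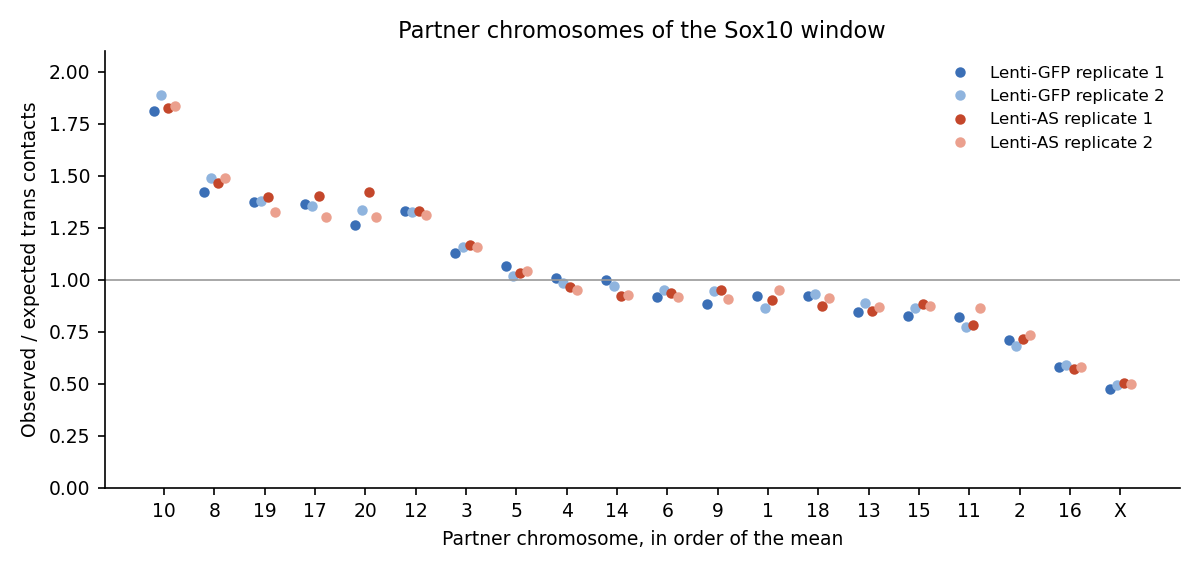
O/E of the trans contacts of the Sox10 window with each other chromosome (1 point per library, coloured by group), ordered by the mean over the libraries. Chromosome 10 lies near 1.8 in each library and X lies lowest, and points of both groups lie close together at most chromosomes.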

How the data were processed

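Hi-C contacts were measured in 4 libraries of infected rat SCs, 2 per group. The authors deposited raw matrices with the count of contacts between each 2 bins of 10 kb, not normalized. Per the submitters' processing notes these were made with HiC-Pro, and the builds rn6 and Rnor_6.0 are named without a role. HiC-Pro drops reads without a unique place, so repeats hold fewer contacts, and raw counts keep each bin's own bias. Samples were grouped by the treatment in the labels, and depth was 70488877 to 110770015 contacts per library. Intervals cover counting error only, since read pairs are not independent molecules.

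Bins with under 0.25 of the median cis contacts were dropped. Counts were divided by the library's mean count at the same distance. Edges were prominent dips (at least 0.2) in insulation over 200 kb of balanced contacts. Loops were pairs from 50 kb to 2 Mb with q of at most 0.05 in a negative binomial regression fitted per library and chromosome on 200000 sampled pairs, with a distance spline of 6 degrees of freedom and both bins' cis contacts. The upper 0.5% of sampled pairs were set aside before the second fit, in place of 2.5%, because more than the nominal share of calls was false with 2.5% when the caller was tested on simulated data. This regression stood in for HiCDCPlus, and the insulation edges for OnTAD. Loops, trans contacts per bin and pairs of 100 kb bins (mean count 10 or more, distance up to 1.9 Mb) were compared with edgeR 4.0.16 (quasi-likelihood), with the contacts at the same distance as offsets for cis pairs. Insulation and the eigenvector were compared with limma 3.58.1. Adjusted p-values of edgeR, limma and DESeq2 were taken over the genome by the method of Benjamini and Hochberg. Single values had two-sided exact permutation tests over libraries, whose p-values were not adjusted. DESeq2 1.42.0, R 4.3.3, Python 3.11.15, numpy 2.4.6 and scipy 1.17.1 were used. The loop caller and the main edgeR and limma fits were tested on simulated data, and the DESeq2 and replicate block fits were not.

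The Sox10 window and all lists were chosen with earlier results of these data known. Named were pairs, loops and bins past the adjusted threshold, at most 3 in each direction, otherwise the 2 with the lowest p in each direction. Also named were all edges and the partners of Sox10 with 20 or more contacts. A search for genes with profiles like that of Sox10, its list of partner and target genes, and motifs needed an rn6 annotation and genome and were not run. The sequence of the Sox10 promoter is not shown here. Alternatives were other offsets, tools, filters, bin sizes, windows and prominence, thinned libraries, the replicate number as a block and leaving out each library.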

Additional observations from a re-analysis of the deposited data

How the results depend on the processing

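With 2 libraries per group, counts of calls moved with single libraries, and 10 kb pairs of Sox10 rest on few contacts. Of 277 comparisons of a result with an alternative, 237 kept the result and 12 changed sign. In 10 a count moved, in 17 a call was lost and in 1 a call was gained. A result without a call was counted as kept if it stayed uncalled with the same sign, whatever its size. A count of calls was kept if its number stayed, even where its members changed. The tally therefore does not measure how stable the results are. The count of 100 kb pairs past the threshold in the Sox10 window was 3, against 0 with the bins' cis contacts in the offsets, 0 with DESeq2 (180 of the 220 pairs without an adjusted p), 0 with a minimum mean count of 5, 0 in bins of 50 kb, and 0 to 3 with 1 library left out (0 without Lenti-GFP replicate 1, Lenti-AS replicate 1 or Lenti-AS replicate 2). The differences of the 3 pairs were -1.29, -0.66 and -0.26, the same at the minimum of 5, -1.32, -0.67 and -0.26 with DESeq2, and -1.20, -0.35 and -0.06 with the cis contacts. Without Lenti-GFP replicate 2, 2 of the 3 passed, with 1 other pair, while that of 119200001 and 119600001 did not (edgeR's adjusted p = 0.101). The replicate number does not show a pairing, since deviations of same-numbered libraries correlated at -0.0153 for insulation and 0.11 for cis contacts over only 2 pairs, and with it as a replicate block 5 window pairs passed, while the count over the genome went from 1006 to 1471. For single values the mean of within-pair differences equals the difference of the means, and no other call of the window changed with the block. Trans contacts had 0 to 1 window bins past the threshold with 1 library left out, the 1 being 120610001 without Lenti-GFP replicate 2 (log2 -0.70, edgeR's adjusted p = 0.0197).

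These differences, Lenti-AS minus Lenti-GFP, changed sign. For the O/E of Sox10 from 50 kb to 2 Mb it was 0.0391, and -0.0183 to 0.0966 with 1 library left out. For the log2 of its contacts toward higher over lower positions it was -0.0542, 0.286 with 1 bin added on each side, and -0.387 to 0.278 with 1 library left out. Across the edge at 120390001 it was -0.0102, and 0.0014 with the bins' cis contacts in the expected counts. For segments with a negative eigenvector it was 0.000513, and -0.00118 to 0.00221 with 1 library left out. In alternatives chosen after seeing the data, the partner 60 kb above Sox10 went from 0.0904 to -0.359 with the bins' cis contacts, and the partner at 50 kb from -0.36 to 0.0324 with 1 bin added on each side. The insulation differences at 120950001 and 120940001 became -0.0242 and -0.0282 with a 500 kb window, and the log2 difference of the loop from 121160001 to 121480001 went from 0.811 to -0.0855 and up to 1.34 with 1 library left out, the lowest without Lenti-AS replicate 1. That of the loop from 120470001 to 120690001, -1.23, ranged from -2.44 to -0.05. The cause was not tested. Setting the upper 2.5% of sampled pairs aside was the earlier choice, replaced after the caller was tested on simulated data. It gave 21, 26, 24 and 20 window loops, in the order Lenti-GFP 1 and 2, Lenti-AS 1 and 2, and again 0 at Sox10. With it the groups overlapped.

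Over the whole genome the main count of 100 kb pairs past the threshold was 1006, against 193 with the bins' cis contacts, 15 with DESeq2, 403 in 50 kb bins and 126 to 710 with 1 library left out. For loops it was 29, against 10, 5 with DESeq2 and 0 to 6. For trans contacts it was 291, against 51 with DESeq2 and 80 to 1071. For insulation it was 5, against 44 with the replicate block, 20 to 40 with 1 library left out, 0 for windows of at least 100 contacts and 3 with a 100 kb window. For the eigenvector it was 0, against 265 in 200 kb bins and 1651 without Lenti-GFP replicate 2. Edges in the window numbered 9, 9, 10 and 10 per library, 10, 9, 10 and 10 in libraries thinned to the shallowest, 13, 14, 14 and 15 at a prominence of 0.1, 12, 13, 11 and 14 with a 100 kb window (a difference of 0 between the group means, against 1) and 6, 7, 8 and 8 with a 500 kb window.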

Other observations

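Other TADs of the Sox10 window were compared in the same way. Inside chr7:119660001-119800000 the O/E was 1.59 and 1.41 in Lenti-GFP and 1.35 and 1.27 in Lenti-AS, inside chr7:119810001-120040000 it was 1.71, 1.62, 1.55 and 1.46, and inside chr7:120920001-121050000 it was 1.58, 1.62, 1.4 and 1.36. Inside chr7:120470001-120910000 it was 1.56, 1.51, 1.49 and 1.49. The exact permutation p of each of these 4 was 0.333 (two-sided, n = 2 libraries each), the smallest possible. Inside chr7:121060001-121150000 it was 1.82, 1.79, 1.68 and 1.85, with overlap (exact permutation p = 1). The means were higher in Lenti-AS inside chr7:120050001-120100000 (1.88 and 1.94) and chr7:120400001-120460000 (1.84 and 1.95), with overlap. The difference between these TADs and that of Sox10 was not tested.

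Inside the largest TAD of the window, 450 kb above Sox10, both Lenti-AS libraries had a shallow edge at chr7:120770001-120780000 with a prominence of 0.241 and 0.235. The dip had a prominence of 0.159 in Lenti-GFP replicate 2 and below 0.1 in Lenti-GFP replicate 1, so the count of 10 against 9 edges rests on a dip near the threshold of 0.2. Its insulation score was 0.178 and 0.173 in Lenti-GFP and 0.061 and 0.0882 in Lenti-AS. A second dip, at 119480001, passed in Lenti-AS replicate 1 alone, at 0.205.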
